A study of Rattus norvegicus with 22 samples.

Results

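The genes described here are the enzymes and carriers with which nervous tissue can make and convert steroids by itself, the local neurosteroid synthesis enzymes. The members were 10 genes picked by symbol from the count table, out of 32883 genes in all. They were Star (ENSRNOG00000015052) and Tspo (ENSRNOG00000010549), which are linked to the import of cholesterol into mitochondria, Cyp11a1 (ENSRNOG00000008074), Cyp19a1 (ENSRNOG00000000196), Srd5a1 (ENSRNOG00000017601), Srd5a3 (ENSRNOG00000002216), Hsd17b4 (ENSRNOG00000015840), Hsd17b10 (ENSRNOG00000003049), Hsd17b12 (ENSRNOG00000009630) and Hsd11b1 (ENSRNOG00000005861).

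RNA sequencing was run on the ventral cervical spinal cord, segments C3 to C6, of 22 Sprague-Dawley rats aged 3 to 4 months, with 1 library per rat. The groups were 5 males with testes in place (intact males, rats 1, 2, 3, 5 and 6), 5 males without testes (gonadectomized, GDX, rats 1, 2, 4, 5 and 6), 6 females with ovaries in place (intact females) and 6 females without ovaries (ovariectomized, OVX). Tissue was taken 2 weeks after surgery, the intact rats were matched for age, and no sham operation is described. Buprenorphine was given before surgery and isoflurane during it. Whether the intact rats received either at that time is not stated. The stage of the oestrous cycle was not used here.

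The total count per library ranged from 12371756 to 17571887. Its median was 14196615 for the intact males, 15645521 after GDX, 14640726 for the intact females and 14766802.5 after OVX. The libraries fell into 2 classes by the average size of the fragments sequenced. All GDX and OVX libraries were of the shorter class, and the longer class held intact males 1, 3 and 6 and intact females 2, 3, 5 and 6. A difference between removed and intact gonads could therefore also be a difference between classes, and was recomputed within the shorter class, where 2 intact rats of each sex were left. The integrity number of the RNA (RIN) ranged from 7.8 to 8.8.

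Steroid synthesis starts when cholesterol, moved by Star and bound by Tspo, reaches the inner mitochondrial membrane, where Cyp11a1 cuts its side chain to give pregnenolone. From there, 5-alpha reductases such as Srd5a1 and the 3-alpha hydroxysteroid dehydrogenase Akr1c14 turn progesterone into allopregnanolone, which acts on GABA-A receptors, while aromatase, Cyp19a1, turns androgens into oestrogens. Steroids made in the gonads and the adrenal glands also reach the nervous system through the blood, and enzymes such as Hsd11b1, which regenerates active glucocorticoid, convert them there.

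Levels are given as CPM, the count of a gene per 1000000 counts in its library, after scaling of the libraries by the trimmed mean of M-values (TMM). The tissue carried the markers of spinal cord. The summed level of 6 motor neuron markers was 449.6 CPM ± 85.2 (SD, n = 22), with Prph the most abundant. The neuron list stood at 1466 CPM ± 107 (Snap25 highest), the astrocyte list at 5996 CPM ± 562 (Gfap highest) and the oligodendrocyte list at 24430 CPM ± 1361 (Mbp highest). Of 5 adrenal cortex markers 3 were in the table, each under 1 CPM in every library, and their sum was 0.490 CPM ± 0.229. The 6 gonad markers summed to 2.79 CPM ± 0.600, of which Inha gave 1.84 CPM, and 4 of the 6 were under 1 CPM in every library. Bulk tissue was sequenced, so fewer cells of a type and less RNA per cell cannot be told apart.

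The members fell into 3 ranges of counts. Cyp11a1 and Cyp19a1 had at most 5 and 4 reads in any library. Star and Tspo were read in all 22 libraries, with 6 to 31 and 14 to 49 reads. The other 6 members had at least 137 reads in every library. Cyp11a1 and Cyp19a1 did not pass the filter on low counts, so 8 of the 10 members were tested. No transcript lengths were used, so the gene given as the most abundant of a list is the one with the highest CPM, which ranks reads and not molecules.

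**Figure D1:**
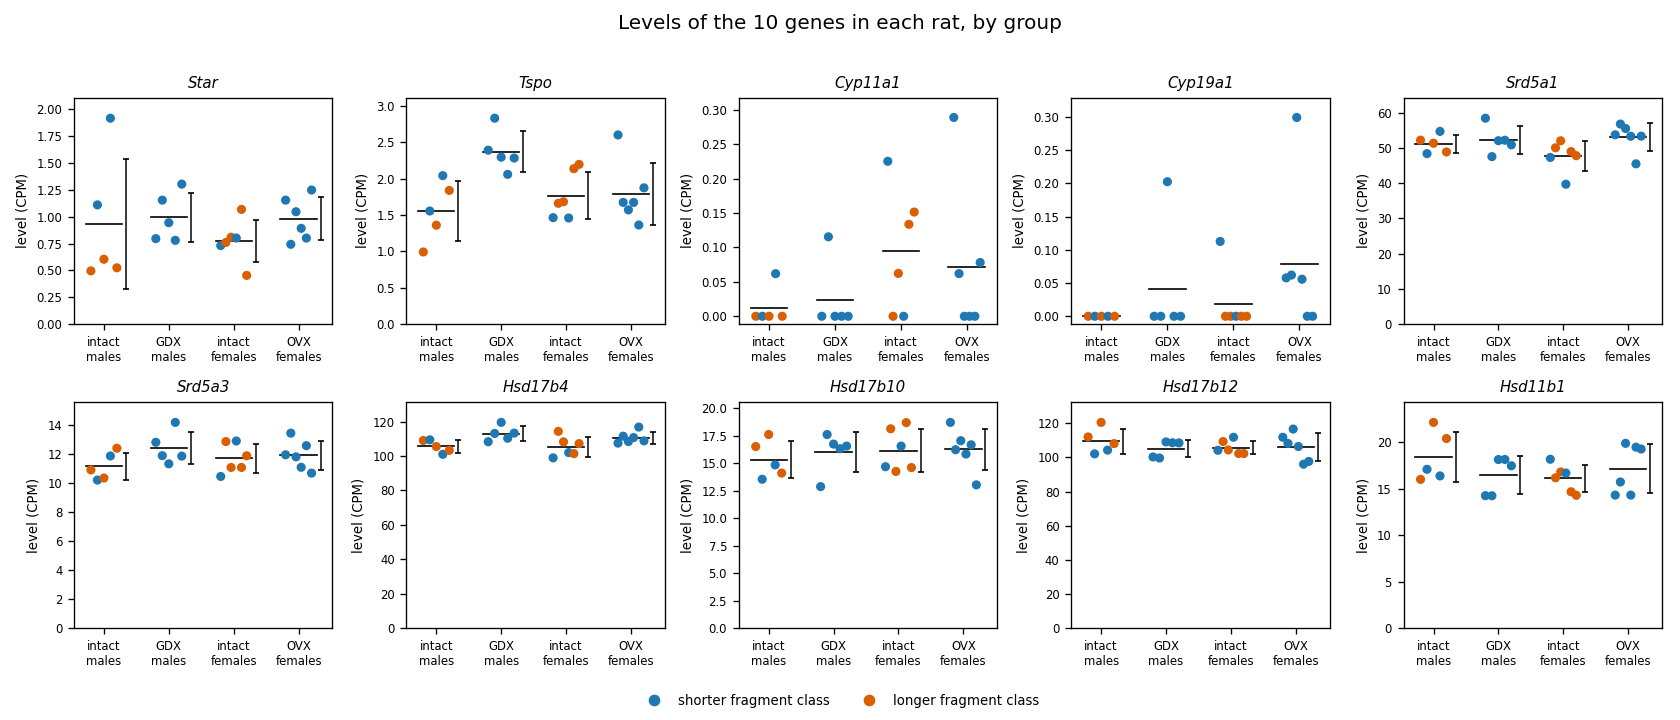
Level of each of the 10 genes in CPM (vertical axes) in each rat, by group (horizontal axes). Points are rats coloured by fragment class, horizontal lines are group means and bars are the SD, which is not drawn for Cyp11a1 and Cyp19a1. In Tspo all 5 GDX males sit above all 5 intact males, and in the other 7 tested genes the groups overlap.

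To show what lies upstream of the steps named above, the 250 bases before the start site are printed for Cyp11a1 (the first step, at 0 to 5 reads per library), Srd5a1 (5-alpha reduction, with no called difference) and Akr1c14 (3-alpha reduction, the enzyme of the route with a called difference). They are RefSeq sequence of build GRCr8, at chr8:67318415-67318664 (plus strand), chr1:35514664-35514913 (plus strand) and chr17:71083185-71083434 (minus strand). Of the 10 members 6 had an entry in the promoter table, and Star, Tspo, Cyp19a1 and Hsd11b1 are named only.
Cyp11a1: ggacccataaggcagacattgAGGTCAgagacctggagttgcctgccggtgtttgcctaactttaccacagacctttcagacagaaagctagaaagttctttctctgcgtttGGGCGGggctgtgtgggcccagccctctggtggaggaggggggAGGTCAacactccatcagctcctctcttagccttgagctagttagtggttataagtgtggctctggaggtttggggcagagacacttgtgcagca
Srd5a1: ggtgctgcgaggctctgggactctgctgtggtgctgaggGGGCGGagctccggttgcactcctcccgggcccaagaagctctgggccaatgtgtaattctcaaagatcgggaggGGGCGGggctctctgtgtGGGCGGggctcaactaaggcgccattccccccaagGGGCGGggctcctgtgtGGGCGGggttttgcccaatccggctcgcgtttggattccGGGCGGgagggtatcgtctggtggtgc
Akr1c14: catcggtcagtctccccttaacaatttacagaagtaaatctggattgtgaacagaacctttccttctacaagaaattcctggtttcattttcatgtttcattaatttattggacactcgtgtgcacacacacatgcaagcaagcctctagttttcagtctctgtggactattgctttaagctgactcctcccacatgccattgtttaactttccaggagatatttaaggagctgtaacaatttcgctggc
Capitals mark 4 motifs searched on both strands. The GC box GGGCGG is in 30.5% of 33469 promoters of that length, the nuclear receptor half-site AGGTCA in 14.1%, the TATA box TATAAA in 12.9% and the glucocorticoid and androgen receptor half-site TGTTCT in 17.5%. The Srd5a1 window held 6 GC boxes and none of the other motifs. The Cyp11a1 window held 1 GC box and 2 AGGTCA half-sites. The Akr1c14 window held no match, which says only that these letters are not in this window. The share of G and C was 66.4% for Srd5a1, 54.4% for Cyp11a1 and 40.4% for Akr1c14, beside a median of 51.2% over all promoters. CG dinucleotides numbered 16, 3 and 3, beside a median of 5. A match describes the sequence and is not a measured binding site.

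Comparisons were tested with edgeR across all genes. Each difference is a log2 fold change (positive where the group named first is higher) with its 95% interval. A gene is called when its p, adjusted over all genes tested, is under 0.1. Values of single males are listed in the order of the rats, 1, 2, 3, 5 and 6 for intact males and 1, 2, 4, 5 and 6 for GDX males.

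Comparing GDX with intact males asks whether the steroid genes of the cord differ once the main source of androgen in the blood is gone. More genes were called here than in any of the other 5 comparisons, yet no member was among them. Tspo had separate groups and missed the threshold. Of the other 7 tested members, 6 had narrow intervals around small differences, and the interval of Star was too wide for a difference to be told. edgeR called 0 of 8 members, with 2 at an unadjusted p under 0.05 (Tspo and Hsd17b4), and DESeq2 also called 0. The unadjusted p was under 0.05 for 3549 of all 14931 genes, so the 2 members do not stand out. Of all 14931 genes tested, 13.4% were called, 6.78% higher and 6.58% lower in GDX males. These 1995 genes became 1202 without GDX male 5, 1262 with RIN as a term, 796 with the class as a term and 440 within the shorter class. The median log2 fold change was 0.08 for the 8 members and 0.00 for all genes.

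Tspo encodes the translocator protein of the outer mitochondrial membrane. Its level in the intact males was 0.992, 1.55, 1.36, 2.04 and 1.84 CPM. The GDX males had 2.39, 2.83, 2.29, 2.06 and 2.28 CPM. All 5 GDX males were above all 5 intact males, though the nearest pair, intact male 5 and GDX male 5, was almost level. Tspo was the 1 member of 8 whose groups did not overlap, beside 7.47% of all genes. The counts behind these values were 14 to 33 reads in intact males and 29 to 49 in GDX males. This gave a log2 fold change of 0.60 (SE 0.21, interval 0.14 to 1.06), with an adjusted p of 0.1002, just above the level of a call.

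Whether Tspo was called depended on the setting. Its adjusted p over the alternatives ran from 0.0675 to 0.483. It was called with a filter at 1 CPM (0.0919), with all 22 rats in 1 fit (0.0675) and without intact male 5 (log2 fold change 0.72, adjusted p 0.0793). Within the shorter fragment class, with intact males 2 and 5 alone as controls, the log2 fold change was 0.40 and the adjusted p 0.476. With the class as a term in the fit it was 0.39 and 0.483.

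Tspo is made by microglia, vessel cells and astrocytes among others, so marker lists of cell types were set beside it. The 8 microglia markers in the table, led by Csf1r at 85.2 CPM, summed to 218.2, 210.3, 226.6, 231.3 and 208.7 CPM in the intact males. Among GDX males the values were 229.0, 241.4, 236.4, 278.2 and 214.1 CPM. The groups overlapped and GDX male 5, the lowest GDX male in Tspo, was the highest in microglia markers. The means, 219 CPM ± 9.87 and 239.8 CPM ± 23.8 (SD, n = 5 each), gave an adjusted p over the lists of 0.108 in a two-sided exact permutation test, and 0 of 8 microglia genes were called by edgeR, with the list passing without intact male 5 (0.0952) or GDX male 6 (0.0595).

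The 6 astrocyte markers, led by Gfap at 3506 CPM, summed to 5152, 5472, 5689, 5695 and 5322 CPM in the intact males. The GDX males stood at 6459, 6546, 6240, 7189 and 6565 CPM, all above the intact males as for Tspo. GDX male 5, the lowest GDX male in Tspo, was the highest in astrocyte markers as well. The ratio of the means was 1.21 (adjusted p 0.0238, exact permutation test), and 2 of 6 genes were called higher, Gfap (0.38) and Aqp4 (0.18). Slc1a2 (-0.08) and Slc1a3 (-0.03) pointed the other way without a call. By the mean log2 CPM of the list, in which each gene weighs the same, the difference was 0.125 in place of 0.27 (adjusted p 0.0298, in a range of 0.0298 to 0.130 over the alternatives).

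Vessel and meningeal markers differed too. The 7 endothelium markers, led by Slc2a1 at 93.7 CPM, summed to 174.9, 203.9, 198.0, 217.0 and 194.1 CPM in the intact males. With the testes removed they summed to 283.1, 296.2, 259.3, 267.6 and 244.1 CPM. Every GDX male was above every intact male, as for Tspo, and 7 of 7 genes were called higher. The ratio of the means was 1.37, with an adjusted p of 0.0238 in the exact permutation test. The meninges and fibroblast list, led by Col1a1 at 85.7 CPM, summed to 188.7, 126.5, 131.5, 85.0 and 63.2 CPM in the intact males. The 5 GDX males stood at 170.1, 284.3, 412.8, 543.4 and 442.5 CPM. GDX male 1 was inside the range of the intact males and the other 4 were above it, with GDX male 5 again the highest. The ratio was 3.12 (adjusted p 0.0340, exact permutation test), and 8 of 8 tested genes were called higher. The part of these cells in the Tspo values was not tested.

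**Figure D2:**
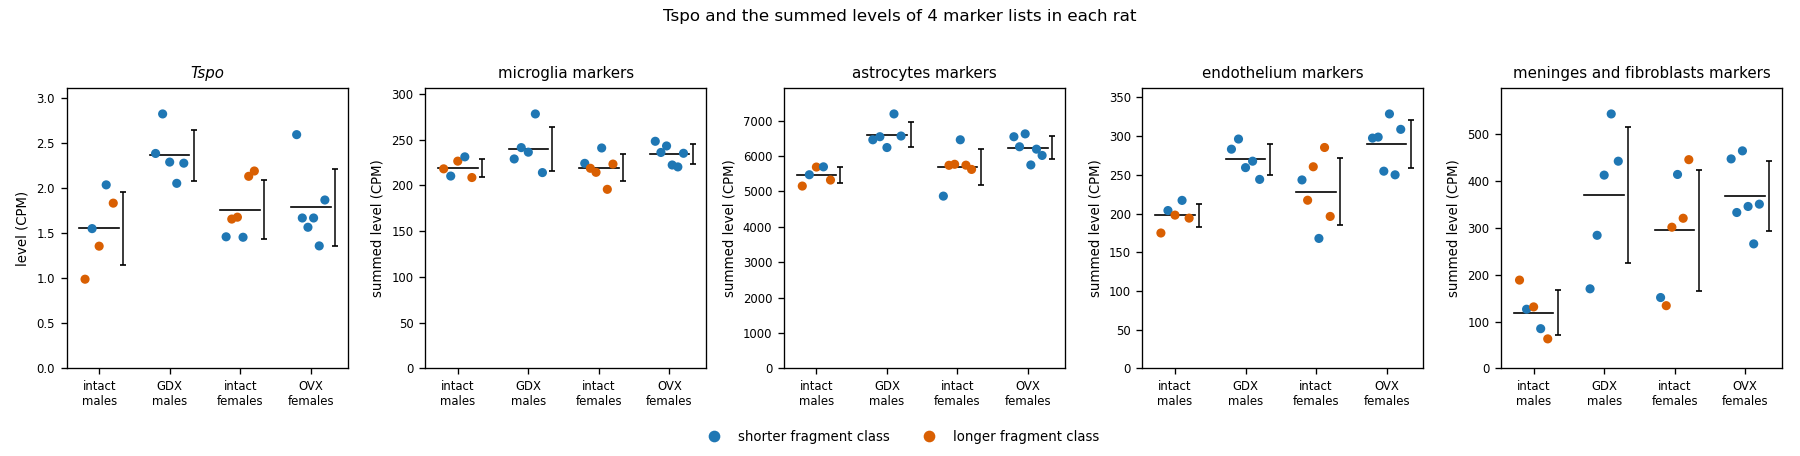
Level of Tspo in CPM and summed level in CPM of the microglia, astrocyte, endothelium and meninges and fibroblast markers (vertical axes) in each rat, by group (horizontal axes). Points are rats coloured by fragment class, lines are means and bars are the SD. Tspo and the astrocyte and endothelium sums separate GDX from intact males, and the microglia and the meninges and fibroblast sums do not.

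Of the 15 marker lists, 9 passed an adjusted p of 0.1 between GDX and intact males in the exact permutation test. Endothelium, mural cells, meninges and fibroblasts, astrocytes, oligodendrocytes, oligodendrocyte precursors and blood cells were higher in GDX males, and neurons and dorsal horn neurons were lower. The dorsal horn sum was nearly all Calb2 (141.8 of 145.6 CPM), and by the mean log2 CPM of the list the difference turned to 0.23. The blood cell sum was mostly the haemoglobin gene Hba-a2 (23.4 of 29.15 CPM), and its groups overlapped. Microglia, motor neurons, ependyma, Schwann cells, adrenal cortex and gonads did not pass.

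Some of these calls depended on the setting. By the mean log2 CPM, oligodendrocytes (0.0595) and their precursors (0.0647) no longer passed (adjusted p 0.206 for both), and adrenal cortex did (0.34, adjusted p 0.0850, against 0.66 and 0.109 by the sum). The 3 adrenal cortex genes were each under 1 CPM in every library, and 0 of them passed the filter on low counts. The oligodendrocyte list was lost without intact male 1, 2 or 6 or GDX male 4 or 5 (adjusted p 0.119 to 0.132), and the precursors without intact male 2 or 6 or GDX male 5 (0.106 to 0.119). Schwann cells passed without intact male 3 (0.0529) or GDX male 1 (0.0595) or 2 (0.0952), and adrenal cortex without intact male 2 (0.0397). With a rat left out 7 to 10 lists passed. Within the shorter class, 5 against 2 rats, the exact test had 21 arrangements and a smallest p of 0.0952, so that a pass needed all 15 lists at that p. No pass there is therefore no evidence against a difference. The log2 ratio within that class was 0.36 for endothelium (0.45 over all 10 males), 1.81 for the meningeal list (1.64), 0.24 for astrocytes (0.27) and -0.11 for neurons (-0.17). Motor neurons (-0.10 over all males) turned to 0.23 and ependyma (0.03) to -0.20.

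Star moves cholesterol to the inner mitochondrial membrane. In the intact males its level was 0.496, 1.11, 0.604, 1.92 and 0.525 CPM. The GDX males had 0.796, 1.15, 0.944, 0.780 and 1.30 CPM. The 2 highest intact males, 2 and 5, were the 2 of the shorter class, and the 3 of the longer class lay below every GDX male. Between the groups the log2 fold change was 0.09 (interval -0.70 to 0.87), wide enough that differences inside it were not detectable at 7 to 31 reads per library. With a rat left out it lay between -0.07 (without intact male 1) and 0.55 (without intact male 5, adjusted p 0.360, in a range of 0.339 to 0.982 over the alternatives). Within the shorter class, where intact male 5 was 1 of the 2 controls, it turned to -0.61.

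Cyp11a1, the side-chain cleavage enzyme, had 1 read in the 5 intact males together (rat 5) and 2 in the 5 GDX males (rat 2). Cyp19a1, aromatase, had 0 reads in all intact males and 3 in the GDX males (rat 4). Counting 3 reads as the limit that a count of 0 allows, Cyp19a1 could have stood at up to 0.0420 CPM of the unscaled totals of the intact male libraries together. No difference was detectable at this depth for either gene. Such limits cover counting error only, while the intervals from edgeR also take in the spread between rats.

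The enzymes with higher counts differed little. Srd5a1, the 5-alpha reductase that acts on progesterone and testosterone, was at 52.2, 48.4, 51.35, 54.7 and 48.9 CPM in the intact males. Among GDX males the values were 58.45, 47.55, 52.1, 52.2 and 50.9 CPM. The lowest and the highest of these rats were both GDX males. The log2 fold change was 0.03 (interval -0.09 to 0.16). Srd5a3, which also reduces polyprenol in the making of dolichol, had a mean of 11.15 CPM ± 0.956 in intact males and 12.41 CPM ± 1.12 in GDX males, overlapping, with a log2 fold change of 0.15 (interval -0.04 to 0.34).

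Hsd17b4 works in peroxisomes on fatty acids and oxidises oestradiol. Its level was 109.0, 109.4, 105.5, 101.0 and 103.3 CPM in the intact males. With the testes removed it was 108.3, 113.1, 119.5, 110.3 and 113.3 CPM. GDX male 1 lay inside the range of the intact males and the other 4 above it. This gave a log2 fold change of 0.10 (interval 0.01 to 0.19), with an adjusted p of 0.172.

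The 3 remaining members overlapped between GDX and intact males. Hsd17b10, a mitochondrial dehydrogenase that is also a subunit of RNase P, had a log2 fold change of 0.07 (interval -0.14 to 0.27). Hsd17b12, which elongates very long fatty acids and reduces oestrone, had -0.06 (interval -0.16 to 0.05). Hsd11b1 had -0.16 (interval -0.39 to 0.07). In the shorter class alone these were 0.17, 0.03 and -0.02, so that Hsd17b12 turned, and Srd5a1, Srd5a3 and Hsd17b4 had 0.02, 0.17 and 0.10.

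**Figure D3:**
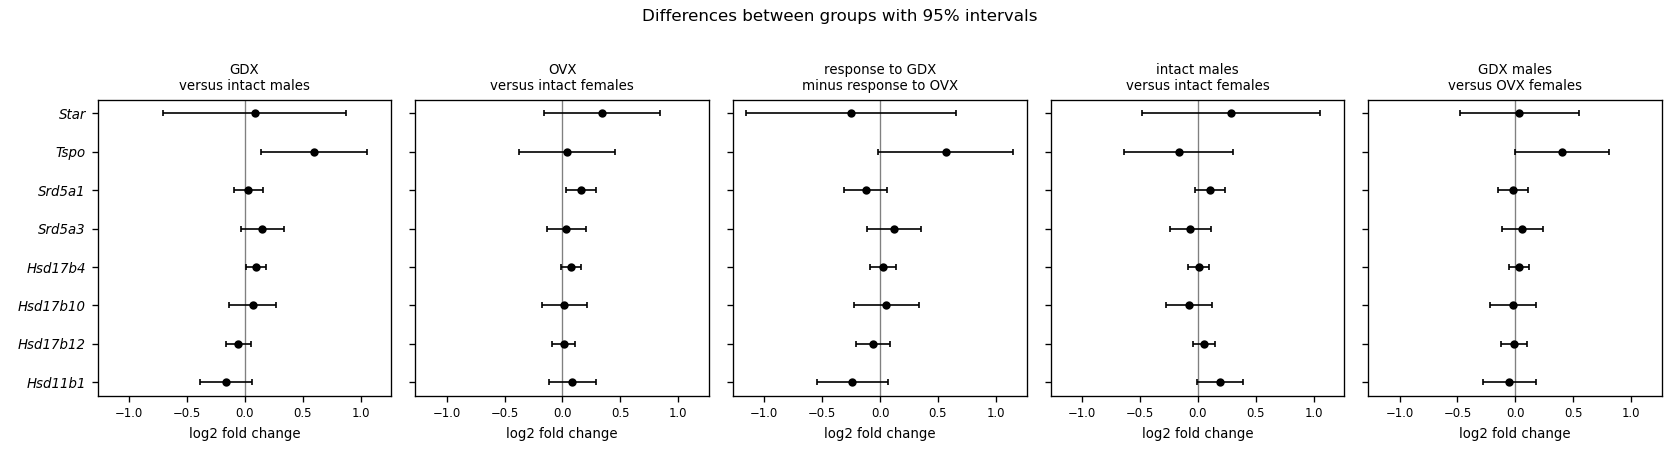
Log2 fold change (horizontal axes) of the 8 tested genes (vertical axis) in 5 comparisons. Points are estimates and bars are 95% intervals. Of the 40 intervals shown, those of Tspo and Hsd17b4 (GDX versus intact males) and of Srd5a1 (OVX versus intact females) exclude 0, and no gene was called.

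Around the members, 11 lists of partner genes held 121 genes, of which 110 were in the table and 85 could be tested between GDX and intact males. Genes were called on the lists of cholesterol delivery, electron supply, steroid reduction, sulfation, steroid receptors, glucocorticoid response and isoleucine breakdown. edgeR called 10 of 85, 6 higher and 4 lower in GDX males. That is 11.8%, no more than the 13.4% of all genes, so the lists as a whole did not stand out and the called genes below are described singly. The median log2 fold change of the 85 was 0.03. With RIN as a term 3 were called, with the fragment class as a term 4, and within the shorter class 1. With a rat left out 6 to 11 were called, 6 without GDX male 5.

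On the list of cholesterol delivery and Tspo partners, Tspoap1 fell, a protein that binds Tspo and is also found at synapses. Its level was 77.1, 94.5, 71.4, 83.6 and 75.8 CPM in the intact males. The 5 GDX males stood at 71.3, 67.0, 52.7, 56.4 and 63.9 CPM. No GDX male reached the lowest intact male, although GDX male 1 and intact male 3 nearly met. Between the groups the log2 fold change was -0.37 (interval -0.55 to -0.19, adjusted p 0.0179). Tspoap1 was the 1 gene of the 10 that was called under every alternative and with each rat left out (adjusted p 0.00114 to 0.0857 over the alternatives). Neuron markers moved the same way, with a ratio of 0.889 and an adjusted p of 0.0238 in the exact permutation test. Their part in the Tspoap1 values was not tested.

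Dbi, whose product binds Tspo and acyl-CoA, rose by 0.20 (adjusted p 0.0793). The call on Dbi was lost without intact male 1 (0.160), 2 (0.180), 5 (0.109) or 6 (0.125) and without GDX male 5 (0.179) or 6 (0.183). It was also lost with RIN (0.245) or the class (0.148) as a term and within the shorter class (log2 fold change 0.25, adjusted p 0.189), in a range of 0.0361 to 0.245 over the alternatives. Vdac1, a channel of the outer mitochondrial membrane, fell by 0.14 (adjusted p 0.0508), a call lost without intact male 3 (0.101) or GDX male 5 (0.128). It was also lost with RIN (0.142) or the class (0.357) as a term and within the shorter class (log2 fold change -0.10, adjusted p 0.432), in a range of 0.0202 to 0.432. Vdac2, the most abundant gene of the list at 208.6 CPM, had a log2 fold change of 0.02 and was not called.

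Akr1c14 (ENSRNOG00000017672) makes allopregnanolone from the product of Srd5a1. Its level was 1.13, 1.04, 0.755, 1.30 and 0.722 CPM in the intact males. The GDX males had 0.796, 1.62, 1.96, 2.62 and 2.02 CPM. GDX male 1 lay among the intact males and the other 4 above them, the same split as in the meningeal markers. The libraries of GDX males 1 and 2 also stood apart over all genes. The chi-square per gene between the counts of 2 libraries was 5.08 for this pair, 10.8 to 21.8 between them and GDX males 4, 5 and 6, and 7.19 to 9.88 among those 3. The part of this division in the GDX differences was not tested. The log2 fold change was 0.85 (interval 0.21 to 1.49, adjusted p 0.0970). The call was lost without intact male 1 (0.142), 2 (0.155), 3 (0.167) or 6 (0.184), without GDX male 2 (0.116), 4 (0.169), 5 (0.244) or 6 (0.174) and within the shorter class (log2 fold change 0.61, adjusted p 0.487). It was also lost with no filter on low counts (0.136), with RIN (0.208) or the class (0.437) as a term and with all 22 rats in 1 fit (0.111). Without GDX male 1 the log2 fold change was 1.04 and the adjusted p 0.0197, in a range of 0.0197 to 0.487 over the alternatives. Akr1c14 belongs to a family of similar genes, so reads shared with near copies make its level less certain. The part of meningeal cells in these values was not tested.

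Sult1a1 adds sulfate to phenols and steroids. Its level was 1.275, 1.18, 1.96, 1.36 and 1.51 CPM in the intact males. Among GDX males the values were 1.725, 2.25, 2.90, 4.255 and 3.78 CPM, so that GDX male 1 was below intact male 3 and the other 4 were above all intact males. This gave a log2 fold change of 1.03 (interval 0.47 to 1.58, adjusted p 0.0253). Over the alternatives the adjusted p ran from 0.00545 to 0.140, and the call was lost with RIN as a term (0.102) and within the shorter class (0.140). The log2 fold change was 0.86 and 1.22 in these fits, so the difference kept about its size. Sult1a1 too has close relatives in the genome. GDX male 1 was also the lowest GDX male in the meningeal markers, whose part in the Sult1a1 values was not tested.

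Sult4a1, a sulfotransferase-like protein of neurons, fell by 0.26 (interval -0.36 to -0.15, adjusted p 0.00778). It ran from 172.3 to 184.9 CPM in intact males and from 132.8 to 156.4 CPM in GDX males, with no overlap. The call was lost within the shorter class (log2 fold change -0.25, adjusted p 0.111, in a range of 2.50e-05 to 0.111 over the alternatives). Neuron markers were lower too, as given beside Tspoap1, and GDX male 5 was the lowest rat in both, at 132.8 CPM for Sult4a1 and 1270 CPM for the neuron list. Their part in the Sult4a1 values was not tested.

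The other called genes were Cyb5a, which passes electrons to steroid enzymes (0.23, adjusted p 0.0310), Acat1 of isoleucine breakdown (0.15, 0.0611), Pdk4, a glucocorticoid-responsive kinase (0.50, 0.0282), and the membrane progestin receptor Paqr9 (-0.34, 0.0197). The call on Acat1 was lost without intact male 1 (0.129), 2 (0.118), 3 (0.109) or 5 (0.114) or GDX male 2 (0.104) or 5 (0.155). It was also lost within the shorter class (log2 fold change 0.16, adjusted p 0.221), in a range of 0.040 to 0.221 over the alternatives. Those on Cyb5a, Pdk4 and Paqr9 held with each rat left out and were lost within the shorter class (0.120, 0.244 and 0.181), the upper ends of ranges that start at 0.0140, 0.00946 and 0.00276 over the alternatives. Their log2 fold changes there, with 2 controls, were 0.28, 0.46 and -0.29, near those over all rats. By the numbers of partner genes called with RIN or the class as a term, given above, not all of Cyb5a, Acat1, Pdk4 and Paqr9 kept their calls in those fits.

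**Figure D4:**
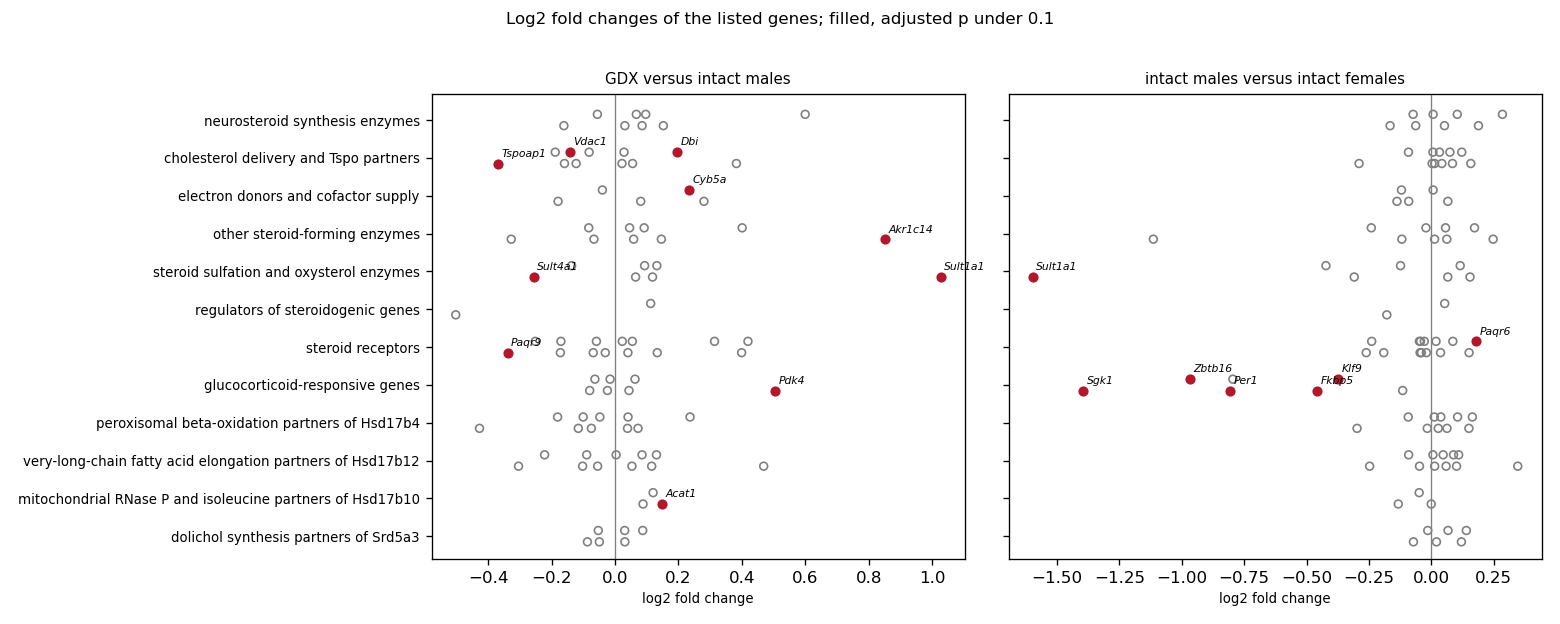
Log2 fold change (horizontal axes) of each tested gene of the synthesis enzymes and of the 11 partner lists (vertical axis), between GDX and intact males and between intact males and intact females, which share the intact males. Filled points are genes with an adjusted p under 0.1. The synthesis enzymes hold no filled point, and 10 and 7 partner genes are filled.

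Comparing OVX with intact females asks the same of the ovaries. No member or partner gene was called, and the number called in the whole table depended on the setting. Star and Tspo had wide intervals, and the differences of the other 6 tested members were at most 0.16. Called genes made up 0.0335% of 14910 tested, 5 genes, while DESeq2 called 174, and with a rat left out the number ran from 0 (OVX female 1 or 6) to 113 (intact female 1). edgeR called 0 of 8 members with 1 at an unadjusted p under 0.05 (Srd5a1), beside 1516 of all genes, and DESeq2 called 0. Of the 8, 0 had groups that did not overlap, beside 0.543% of all genes. The median log2 fold change was 0.06 for the members and 0.00 for all genes.

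Srd5a1 ran from 39.7 CPM over a median of 48.4 to 52.0 CPM in the 6 intact females. In the 6 OVX females it ran from 45.5 CPM over a median of 53.55 to 56.8 CPM. The ranges overlapped, and intact female 4 was the lowest of all. Between the groups the log2 fold change was 0.16 (interval 0.03 to 0.29, adjusted p 0.390). Tspo ran from 1.46 over 1.67 to 2.19 CPM in intact females and from 1.36 over 1.67 to 2.60 CPM in OVX females. The medians were level, with a log2 fold change of 0.04 (interval -0.37 to 0.45). Within the shorter class, where intact females 1 and 4 were the controls, that of Tspo was 0.30 (interval -0.38 to 0.98, adjusted p 0.913) and that of Srd5a1 0.28 (interval 0.09 to 0.48, adjusted p 0.605), neither called. These 2 controls were the least alike of the 15 pairs of intact females, with a chi-square per gene of 18.3 between their counts, where the other pairs had 6.42 to 16.3. Star ran from 0.454 over 0.781 to 1.07 CPM in intact females and from 0.743 over 0.969 to 1.25 CPM in OVX females, with a log2 fold change of 0.34 (interval -0.16 to 0.84).

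The 5 other tested members had log2 fold changes from 0.01 (Hsd17b12) to 0.08 (Hsd11b1), and within the shorter class Hsd17b12 turned to -0.02 and Hsd11b1 to -0.03. There Hsd17b4 moved from 0.08 to 0.14 (interval 0.02 to 0.26, adjusted p 0.759), Hsd17b10 from 0.02 to 0.06, and Srd5a3 from 0.03 to 0.04. Cyp11a1 had 9 reads in the intact females (4 in rat 1, 1 in rat 3, 2 in rat 5, 2 in rat 6) and 7 in the OVX females (5 in rat 1, 1 in rat 2, 1 in rat 6). Over both conditions Cyp11a1 had 16 reads in 12 females and 3 in 10 males. Cyp19a1 had 2 reads in the intact females (rat 1) and 7 in the OVX females (4 in rat 3 and 1 each in rats 1, 2 and 4). The limit for a count of 0 was between 0.171 and 0.242 CPM for single libraries, and 0.0332 and 0.0336 CPM for the intact and the OVX females together. With no filter on low counts edgeR called neither gene in females (adjusted p 0.933 for Cyp11a1 and 0.670 for Cyp19a1) or males (0.839 and 0.433). Between intact males and intact females Cyp11a1 had an unadjusted p of 0.0498 in edgeR (adjusted p 0.424) and 0.136 in DESeq2.

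Of the 85 partner genes tested in females edgeR called 0, with 15 at an unadjusted p under 0.05, beside 1516 of all 14910 genes. Of the 7 glucocorticoid-responsive genes 0 were called in OVX females. Their median log2 fold change was -0.38 over all 12 females, with 5 at an unadjusted p under 0.05. All 7 turned to the other side within the shorter class, with a median of 0.29 (from 0.07 to 0.47) and 0 called. Of the 15 marker lists 4 passed the exact permutation test, endothelium (adjusted p 0.0758) and blood cells (0.0758) higher and neurons (0.0812) and motor neurons (0.0758) lower in OVX females. Mural cells, meninges and fibroblasts, astrocytes, oligodendrocytes, their precursors, microglia, dorsal horn neurons, ependyma, Schwann cells, adrenal cortex and gonads did not pass, though astrocytes and the precursors did by the mean log2 CPM of the list (adjusted p 0.0244 for both, in ranges of 0.0244 to 0.536 and 0.0244 to 0.919). Within the shorter class, 6 against 2 rats, the smallest exact p was 0.0714, and a pass needed 11 of the 15 lists at that p. The log2 ratio there was 0.49 for endothelium (0.34 over all 12 females), 0.64 for blood cells (0.92), -0.08 for neurons (-0.13) and -0.18 for motor neurons (-0.37). With a rat left out 0 to 6 lists passed, 0 without intact female 2, 3 or 6 or OVX female 1, 2 or 6, 2 without intact female 5 or OVX female 5, and 6 without intact female 4.

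Whether males and females responded differently was tested directly, as the response to GDX minus the response to OVX. No member had a called difference in response. edgeR called 0 of 8 members, with 0 at an unadjusted p under 0.05, and DESeq2 called 0. Called genes made up 0.116% of the 15562 tested, 18 genes, while DESeq2 called 247 and with a rat left out 1 to 275 were called. Tspo had a difference in response of 0.57 (interval -0.02 to 1.15, adjusted p 0.443), so that its separation in males was not shown to be a difference between the sexes. The difference was 0.095 within the shorter class, where Tspo had 0.40 in males and 0.30 in females (adjusted p of the difference 0.953). Of 86 partner genes 1 was called, Sult1a1, with 1.36 (interval 0.75 to 1.97, adjusted p 0.0973). Sult1a1 rose in GDX males and had a log2 fold change of -0.33 (not called) in OVX females. Over the alternatives the adjusted p ran from 0.0102 to 0.406. The call was kept without intact male 3, GDX male 1 or 2, intact female 1 or OVX female 1 and was lost without any of the other 17 rats (adjusted p 0.102 to 0.255), while the log2 fold change lay between 1.20 and 1.50 with any rat left out.

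Between intact males and intact females the question is whether the enzymes differ by sex while the gonads are in place. No member was called. Several glucocorticoid-responsive genes were, and in the females their levels divided by fragment class. This comparison shares its intact males with that of GDX and intact males. edgeR called 0 of 8 members, with 0 at an unadjusted p under 0.05, DESeq2 called 0, and 4.01% of 14937 genes were called, 599 genes. With a rat left out 352 to 777 were called, 352 without intact male 1 and 385 without intact male 5. The shares were 1.45% higher and 2.56% lower in males. No member had groups that did not overlap, beside 2.67% of all genes.

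Hsd11b1 regenerates active glucocorticoid from its inactive form, and is the member nearest to the glucocorticoid-responsive genes. Its level was 16.0, 17.1, 22.1, 16.4 and 20.4 CPM in the intact males. In the 6 intact females it ran from 14.3 over a median of 16.4 to 18.2 CPM. Intact males 3 and 6 were above all females and the other 3 within their range. The log2 fold change was 0.19 (interval -0.01 to 0.39, adjusted p 0.355). It was -0.06 within the shorter class, 2 males against 2 females, and 0.33 (adjusted p 0.218, in a range of 0.218 to 0.876 over the alternatives) within the longer class, 3 males against 4 females, a comparison chosen after seeing the data.

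Of the 7 listed genes that glucocorticoids induce, 5 were lower in intact males than in intact females, beside 2.56% of all genes. The list was chosen with earlier results of these data known, so this share is a description only. They were Fkbp5 (log2 fold change -0.46, adjusted p 0.0558), Sgk1 (-1.39, 0.0343), Zbtb16 (-0.97, 0.0445), Per1 (-0.81, 0.0291) and Klf9 (-0.37, 0.0329), and the median of the 7 was -0.80 against 0.00 for all genes. Pdk4 (-0.80, adjusted p 0.149) and Tsc22d3 (-0.12, 0.516) pointed the same way without a call. Over the rats left out in turn the count ranged from 3 to 6. Without intact male 1 it was 3, with Fkbp5 (0.150) and Zbtb16 (0.102) lost. Fkbp5 was also lost without intact male 5 (0.117) or intact female 3 (0.114) or 5 (0.104), and Zbtb16 without intact male 2 (0.101).

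Sgk1, a kinase that glucocorticoids induce, shows the division by class. The intact males had it at 25.0, 30.1, 31.2, 33.9 and 27.1 CPM. In the 4 intact females of the longer class, rats 2, 3, 5 and 6, it was at 140.4, 117.3, 85.3 and 54.9 CPM. In the 2 of the shorter class, rats 1 and 4, it was at 29.1 and 39.0 CPM. The 4 longer-class females were above every male, the 2 shorter-class females were near the males, and males of both classes were alike. Within the shorter class 0 of 7 genes were called and the median log2 fold change was -0.04, from -0.11 to 0.12. Within the longer class 6 of 7 were called, all but Tsc22d3, with a median of -1.13. Over all genes the fit of the shorter class called 34 and that of the longer class 348. With the class as a term 5 of 7 were called. Whether the sex difference depends on the class was not tested, and with 2 females of the shorter class the rats and the class cannot be told apart.

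**Figure D5:**
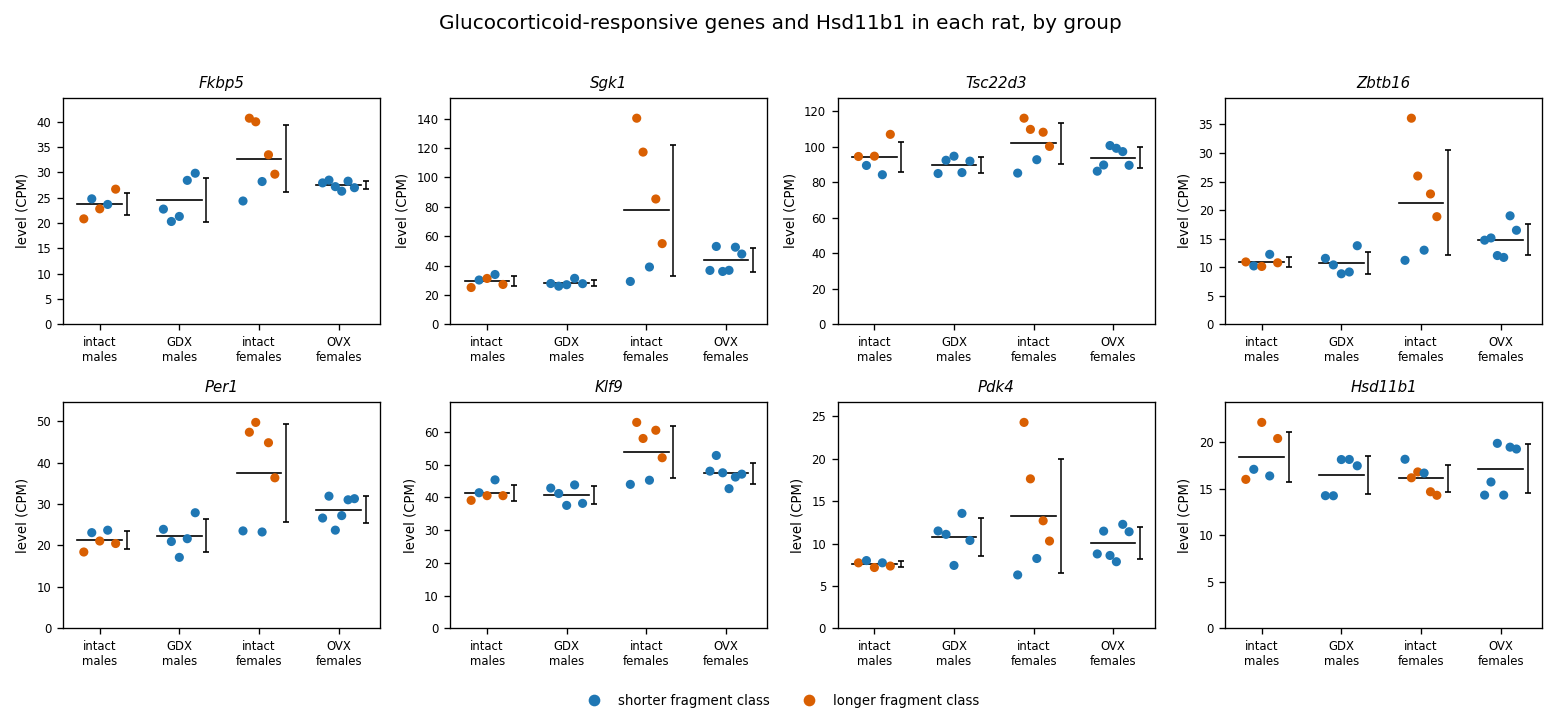
Level in CPM (vertical axes) of 7 glucocorticoid-responsive genes and of Hsd11b1 in each rat, by group (horizontal axes). Points are rats coloured by fragment class, lines are means and bars are the SD. For Fkbp5, Sgk1, Per1, Klf9, Zbtb16 and Pdk4 the 4 longer-class intact females lie above all intact males, and the 2 shorter-class females lie near the males.

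Of the 85 partner genes 7 were called between intact males and intact females, the 5 above, Sult1a1 and Paqr6. That is 8.24%, beside 4.01% of all genes, again a description only, as the lists were chosen with earlier results known. Sult1a1 ran from 3.10 over a median of 4.63 to 5.74 CPM in intact females, above all intact males. This gave a log2 fold change of -1.60 (interval -2.03 to -1.17, adjusted p 0.000697). It was -1.72 within the shorter class (adjusted p 0.177) and -1.52 within the longer (0.0218), and over the alternatives the adjusted p ran from 1.48e-09 to 0.177. The meningeal markers, at a mean of 119 CPM ± 48.3 in intact males (n = 5) and 294.7 CPM ± 129.7 in intact females (n = 6), moved the same way, with 6 of 8 tested genes called lower (adjusted p 0.108, exact permutation test). Their part in the Sult1a1 values was not tested. Paqr6, a membrane progestin receptor, was higher in males by 0.18 (adjusted p 0.0574), a call lost without intact male 5 (0.125) or 6 (0.134) or intact female 4 (0.114), 5 (0.105) or 6 (0.120) and within the shorter (0.397) and the longer class (0.239), in a range of 0.0295 to 0.397.

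Of the 15 marker lists 2 passed the exact permutation test between the intact sexes. Dorsal horn neurons were higher in males (ratio 1.14, adjusted p 0.0649), with no overlap, and turned to -0.33 by the mean log2 CPM of the list. That list was lost without intact male 2, 5 or 6 or intact female 3, 4, 5 or 6 (0.119 to 0.143). Schwann cells, led by Drp2 at 50.5 CPM, were lower in males (ratio 0.573, adjusted p 0.0974), with 3 of 5 genes called lower. By the mean log2 CPM the difference was -1.38, against -0.80 by the sum. They were lost without intact male 1, 2, 5 or 6 or intact female 3, 4, 5 or 6 (0.143 to 0.214). The meningeal list passed by the mean log2 CPM (0.0649) and without intact female 1 or 2 (0.0794 each) or intact male 1 (0.0714). The other 12 lists did not pass. In the shorter class, 2 against 2 rats, the exact test could not reach the threshold, as its smallest p was 0.333.

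GDX males and OVX females, all of the shorter class, were compared to see the sexes without gonads. The members did not separate. edgeR called 0 of 8, with 0 at an unadjusted p under 0.05, DESeq2 called 0, and 0.232% of 15084 genes were called. That is 35 genes, while DESeq2 called 136 and with a rat left out 23 to 44 were called. No member had groups that did not overlap, beside 1.35% of all genes. Tspo had a log2 fold change of 0.40 (interval -0.01 to 0.80, adjusted p 0.535), and the other 7 lay between -0.05 (Hsd11b1) and 0.06 (Srd5a3). Of 85 partner genes 1 was called, Sgk1, at 25.9 to 31.3 CPM in GDX males and 35.95 to 53.0 CPM in OVX females, with no overlap. Its log2 fold change was -0.65 (adjusted p 0.0173), a call lost with all 22 rats in 1 fit (0.386, in a range of 6.84e-06 to 0.386) and kept with each rat left out.

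The fragment class was also compared by itself in the intact rats, longer against shorter, with sex as a term. edgeR called 0 of 8 members, with 1 at an unadjusted p under 0.05 (Star), DESeq2 called 0, and 0.00669% of 14937 genes were called. That is 1 gene, while 210 were called with no filter on low counts and 50 with DESeq2, so the size of the class difference over the whole table depended on the setting. Star had a log2 fold change of -0.72 (interval -1.44 to -0.01, adjusted p 0.640). Without intact male 5 it was -0.36 (adjusted p 0.870, in a range of 0.547 to 0.933 over the alternatives). The mean was 1.51 CPM in the 2 shorter-class and 0.542 CPM in the 3 longer-class males, and 0.767 and 0.773 CPM in the females. Whether the class difference depends on sex was not tested. The other 7 members lay between 0.01 and 0.12. Of the 85 partner genes edgeR called 0, with 6 at an unadjusted p under 0.05, 5 of which were glucocorticoid-responsive genes. Of all 14937 genes, 1151 had such a p. The median of the 7 glucocorticoid-responsive genes was 0.40.

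Across the 4 groups the order of the means was seldom wider than the spread between rats. For the 8 tested members there are 24 pairs of neighbours in that order, and in 2 the gap was larger than the larger SD. Tspo in GDX males (2.37 CPM) was above OVX females (1.79 CPM) by 0.579 CPM, with an SD of 0.429. Hsd17b4 in OVX females (110.6 CPM) was above intact males (105.6 CPM) by 4.98 CPM, with an SD of 3.62. For Srd5a1 the order was OVX females (53.0 CPM), GDX males (52.2 CPM), intact males (51.1 CPM) and intact females (47.65 CPM), with no gap beyond the SD.

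The most abundant genes of the partner lists, where not given above, were not called between GDX and intact males. Among the other steroid-forming enzymes, Hsd17b11 (42.9 CPM over all libraries), Hsd17b7 (21.0 CPM) and Hsd17b8 (8.596 CPM) had log2 fold changes of 0.06, 0.09 and -0.07. Among the electron donors, Por (68.8 CPM) and H6pd (12.7 CPM) had 0.08 and -0.04. Of the sulfation and oxysterol enzymes, Cyp7b1 (39.8 CPM) and Cyp46a1 (24.4 CPM) had 0.09 and -0.14. Among the regulators, Nr4a1 (8.05 CPM) and Nr5a2 (1.71 CPM) had 0.11 and -0.50. The receptors Paqr8 (164.9 CPM), Pgrmc2 (58.6 CPM) and Paqr6 (57.0 CPM) had -0.06, 0.05 and -0.07. The glucocorticoid-responsive Tsc22d3 (95.2 CPM), Klf9 (46.3 CPM) and Sgk1 (46.2 CPM) had -0.06, -0.02 and -0.08. The peroxisomal partners of Hsd17b4, Abcd3 (168.8 CPM) and Scp2 (135.4 CPM), had 0.04 and 0.07. The elongation partners of Hsd17b12, Tecr (248.5 CPM), Hacd3 (92.4 CPM) and Elovl5 (88.4 CPM), had -0.05, -0.09 and 0.13. Beside Acat1 on the list of Hsd17b10 partners, Acadsb (28.6 CPM) and Trmt10c (15.3 CPM) had 0.09 and 0.12. The dolichol partners of Srd5a3, Dhdds (43.55 CPM), Nus1 (43.3 CPM) and Dpm1 (21.5 CPM), had -0.09, -0.05 and 0.03. Fshr, on the list of regulators at 0.398 CPM, was not tested. No read was found for Hsd17b6, Akr1c1, Akr1c2 and Sult2a6. Of the 24 other steroid-forming enzymes in the table, 9 could be tested between GDX and intact males. Cyp17a1 had 1 read in the intact males, 1 in the GDX males, 3 in the intact females and 1 in the OVX females. Hsd3b3 had 1 read in the intact males and 0 in the other groups.

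For each tested member the 3 genes with the most similar profile over the 22 libraries were found among 13675 genes, by the root mean square difference of standardised log2 CPM. Tspo was nearest to Sh3pxd2b (0.668), Afap1l1 (0.674) and Itga6 (0.690). Star was nearest to B9d2 (0.677), Irx6 (0.735) and Ubald2 (0.758). Srd5a1 was nearest to Shisal1 (0.665), Slc44a2 (0.671) and Dhx58 (0.693), and Srd5a3 to Vit (0.649), rnf141 (0.733) and Mxd4 (0.737). The nearest to Hsd17b4 were Mall (0.699), Glud1 (0.758) and Zfp207 (0.765), and to Hsd17b10 Rpl27 (0.626), Pex2 (0.687) and Sf3b6 (0.753). The nearest to Hsd17b12 were Dmac2l (0.707), Ranbp6 (0.722) and Slc25a20 (0.728), and to Hsd11b1 Tmem128 (0.777), Eif4e (0.779) and Mdh1 (0.794). These distances are a description of profiles and carry no test.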

How the data were processed

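The values were the raw gene counts as deposited. The paper's methods name Trimmomatic, Hisat2 and featureCounts, and the submitters' processing notes name FastQC, TopHat2 2.0.13, Subread and edgeR, both on Rnor_6.0. The settings for strand and multiply mapped reads were not given in the sources used. Genes were kept by edgeR's own filter on low counts in each comparison, scaled by TMM and tested with edgeR 4.0.16 (quasi-likelihood) in R 4.3.3, with Benjamini-Hochberg adjustment over all genes tested, and again with DESeq2 1.42.0. Marker lists were summed in CPM per library and compared by two-sided exact permutation tests (scipy 1.17.1), adjusted over the 15 lists. The smallest p these tests can give is 0.00794 for 5 against 5, 0.00433 for 5 against 6 and 0.00216 for 6 against 6.

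Named genes were the 10 members, every partner gene with an adjusted p under 0.1, the 3 most abundant genes of each partner list (2 for the peroxisomal list) and the 3 genes nearest in profile to each member. Members and lists were chosen with earlier results of these data known. Cyp11b1, Cyp11b2, Hsd3b1, Hsd3b2, Hsd3b6, Akr1c18, Sult2a1, Sult2a2, Nr3c1, Acaa1b, Prorp, Itgam, Pecam1, Col1a2, Foxj1 and Hba1 were not found by symbol and were not analysed here. The code was tested on simulated counts.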

Additional observations from a re-analysis of the deposited data

Results flagged for a closer look

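In a search of 156 groups of rats for a single value far from the others by Dixon's test at the 95% level, 8 were found. Chance gives about 1 in 20, which is 7.8 here, so the number of such values is about what chance gives. Srd5a1 in OVX female 5 was low at 45.51 CPM, where the other 5 had 53.3 to 56.8 CPM. Hsd17b10 in GDX male 1 was low at 12.87 CPM, where the other 4 had at least 16.3 CPM. Cyb5a in intact male 3 was high at 33.0 CPM beside 28.8 to 29.8 CPM. Sult4a1 in GDX male 5 was low at 132.8 CPM beside 152.0 to 156.4 CPM. Acat1 in intact male 6 was high at 55.69 CPM beside 51.0 to 52.1 CPM.

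Among the marker lists, the oligodendrocyte sum of OVX female 4 was low at 22220 CPM beside 24310 to 25470 CPM. The neuron sum of GDX male 5 was low at 1270 CPM beside 1399 to 1436 CPM. The neuron sum of OVX female 4 was high at 1573 CPM beside 1315 to 1400 CPM. In a test of the difference itself, the response of Sult1a1 to GDX minus that to OVX was a log2 fold change of 1.359, just under the threshold (adjusted p 0.0973). The call was lost without any of 17 of the 22 rats, and the adjusted p ran from 0.0102 to 0.406 over the alternatives.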

How the results depend on the processing

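Cyp11a1 and Cyp19a1 had too few reads to pass the filter on low counts. The intervals of Star and Tspo were wide, and the parts of depth and of the spread between rats in this were not tested. Of 419 member values under alternatives other than a left-out rat, 399 kept their direction and their side of the threshold, 2 were now called and 18 uncalled values had the other sign. With a rat left out 1 of 616 values was newly called and 47 uncalled values had the other sign. The causes of the changes below were not tested.

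Members called between GDX and intact males numbered 1 with a filter at 1 CPM and 1 with all 22 rats in 1 fit, and 0 to 1 with a rat left out. Partner genes called in that comparison numbered 6 at an adjusted p under 0.05, 3 with RIN as a term, 4 with the class as a term, 1 within the shorter class and 6 to 11 with a rat left out. Glucocorticoid-responsive genes called between the intact sexes numbered 0 within the shorter class and 3 to 6 with a rat left out. Within the shorter class Per1 turned to 0.002 and Pdk4 to 0.12. Marker lists called numbered 0 within the shorter class in both sexes, where 2 controls gave a smallest exact p of 0.0952 in males and 0.0714 in females and a pass needed 15 and 11 of the 15 lists at it. The endothelium log2 ratio there was 0.36 and 0.49. The lists numbered 7 to 10 in males and 0 to 6 in females with a rat left out, and 7 and 6 by the mean log2 CPM of the list, under which the dorsal horn list turned to 0.23 in males. Between the intact sexes the lists called numbered 0 within the shorter class, where 2 against 2 rats cannot reach the threshold (smallest exact p 0.333), and 0 to 3 with a rat left out. By the mean log2 CPM the dorsal horn list turned to -0.327 between the intact sexes.

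Of all genes, those called between GDX and intact males numbered 1264 at 0.05, 1262 with RIN, 796 with the class as a term, 440 within the shorter class and 1202 to 2446 with a rat left out. Between OVX and intact females DESeq2 called 174 genes, and 0 to 113 were called with a rat left out. Between the intact sexes 34 were called within the shorter class and 348 within the longer, an alternative chosen after seeing the data.

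With the rat number as a replicate block, 0 members were called in the 5 comparisons it was run for. Rats of the same number in different groups had profiles correlated at -0.114 to 0.063, and 1 of 40 correlated best with its own number, so that the numbers do not pair samples.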
